A study of Mus musculus with 4 samples.

Results

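Transcripts of the tumour necrosis factor (TNF) superfamily and of the pathway that activates the transcription factor NF-kB were compared between mouse peritoneal macrophages exposed overnight to TGFb2 (transforming growth factor beta 2) and macrophages given PBS. The members were all Affymetrix probe sets with exactly 1 gene symbol that starts with Tnfrsf, Tnfsf, Tnfaip or Nfkb, that is Traf followed by a digit, or that is one of 22 listed genes, of which 18 were found. This gave 65 probe sets of 50 genes, out of 12422 probe sets and 8251 genes on the arrays. The rule used gene names only. The listed genes Chuk, Ripk1, Ripk2 and Irak2 were not analysed here. Both groups were female BALB/c mice of 6 to 8 weeks whose peritoneal cells had been elicited by 2 ml of 3% thioglycolate, an irritant, 4 days before harvest. Cells of the control group were kept in serum-free medium with PBS, and those of the treated group in the same medium with porcine TGFb2 (5 ng, with no volume in the labels). Only adherent cells, which the labels give as more than 95% F4/80-positive, went into the RNA, and each group had 2 arrays. Nothing in the labels says whether the 2 arrays of a group came from separate cultures or animals, or from pooled animals, so the p-values measure only the spread between arrays, which may be technical.

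As background, ligands of the TNF superfamily bind receptors that recruit TRAF adaptors, the kinase RIPK1 and the ubiquitin ligases Birc2 and Birc3. These activate the IKK complex, which marks the IkB inhibitors for destruction and so frees dimers of Rela, Rel, Relb, Nfkb1 and Nfkb2 to enter the nucleus, and IRAK kinases feed the same complex from Toll-like and interleukin-1 receptors. NF-kB in turn switches on its own inhibitors, among them Nfkbia, Nfkbie and Tnfaip3, and macrophages are a main source of TNF in inflamed tissue. TGF-beta is known to restrain inflammatory activation of macrophages.

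Values are MAS5 signals, a background-corrected brightness per probe set on a linear scale, and differences are TGFb2 minus PBS on the scale of log2(signal + 15), which understates the change of dim genes. Levels of different probe sets cannot be set against each other. The 2% trimmed mean signal was 150.1 on each of the 4 arrays. Correlations over tested probe sets were 0.978 within PBS, 0.967 within TGFb2 and 0.953 to 0.966 between arrays of different groups. All 8 macrophage markers were tested and 0 of them passed the threshold. At an unadjusted limma p under 0.05 there were 4, against 11.7% of all tested probe sets. These were higher with TGFb2: Cd68, Csf1r, Itgam and Msr1 (log2 differences of 0.23, 0.55, 0.73 and 0.52). The other 4 were below 0, Mrc1 being the lowest (-0.47). Together the 8 summed to 15731 and 16586 with PBS and 17290 and 17885 with TGFb2. Of the 6 T cell markers on the arrays, 5 lay below the level filter, and their summed signal was 94.4 and 49.4 with PBS and 53.5 and 57.9 with TGFb2. All 5 B cell markers on the arrays lay above the filter, 0 of them passed, and they summed to 331 and 379.5 with PBS and 400.3 and 368 with TGFb2. Mast cell markers (3 tested) gave 0 calls, with 1, Cpa3, at an unadjusted limma p under 0.05. Of these, Cpa3 and Tpsb2 were higher on both TGFb2 arrays (log2 differences of 0.76 and 0.43), as were 21.1% of all tested probe sets. Cma1 was not (-0.19). The PBS mean of Cpa3, 18.9, lay below the level filter, so Cpa3 was tested only through its TGFb2 arrays. Both eosinophil markers on the arrays were below the filter, and of 5 tested fibroblast or mesothelium markers Col1a1 rose and Dcn fell. All 6 fibroblast or mesothelium markers on the arrays summed to 1826 and 1127 with PBS and 1130 and 1020.5 with TGFb2, highest on PBS replicate 1. The summed signal of 6 neutrophil markers was 252 and 315 with PBS and 709 and 790.3 with TGFb2. Most of that sum was S100a8, a calgranulin, which rose from signals of 129 and 211 under PBS to 551 and 679 under TGFb2 (1.80 ± 0.24 on the log2 scale, SE, adjusted p = 0.0244 in limma), while Ltf, Ngp, Mmp8 and S100a9 were below the filter. Camp, the sixth, was also higher on both TGFb2 arrays without passing the test, at 74.8 and 63.4 with PBS and 94.3 and 82.4 with TGFb2 (0.30 ± 0.20, adjusted p = 0.62). In RNA from mixed cells, fewer cells of a type and less RNA per cell cannot be told apart, and the part of these other cells in the values below was not tested.

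No tested member changed past the threshold. Of the 65 member probe sets, 42 (34 genes) had a mean signal above the filter, set at the 40th percentile of all probe sets, and 0 of these reached an adjusted p of 0.05 in limma. Over all 7453 tested probe sets, 87 did, which is 1.17%, with 60 higher and 27 lower under TGFb2. Leaving out 1 array gave 50 calls (PBS replicate 1), 35 (PBS replicate 2), 11 (TGFb2 replicate 1) or 25 (TGFb2 replicate 2) over all probe sets, and 0 among the members in each of these 4 fits. At an unadjusted limma p under 0.05, 1 member probe set was found, against 11.7% of all tested probe sets. That 1 was Tnfaip2, described below. The lowest adjusted p among the members was 0.21.

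The members' differences were also small in size. They ran from -0.64 to 0.47 on the log2 scale, with 19 above 0 and 23 below. Their median was -0.03, where the median of all tested probe sets was -0.00088. The middle 50% of members lay between -0.11 and 0.14, and that of all tested probe sets between -0.20 and 0.19. Standard errors of the members ran from 0.15 to 0.29. For 39 of the 42 probe sets (92.9%), the 95% interval of the difference lay inside a 2-fold change in either direction, compared with 82.2% of all tested probe sets. The 3 exceptions were Tnfaip2 and Nfkbie, whose intervals reached beyond a halving in the direction of lower signals under TGFb2, and a dimmer probe set of Tnfrsf1a, whose interval reached beyond a doubling. Both TGFb2 arrays lay above both PBS arrays in 6 member probe sets (14.3%, against 21.1% of all tested), and below them in 9 (21.4%, against 21.8% of all tested). Of the 6, Cd40 and a dimmer probe set of Birc2 had PBS means below the filter level and were tested only through their TGFb2 arrays.

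**Figure D1:**
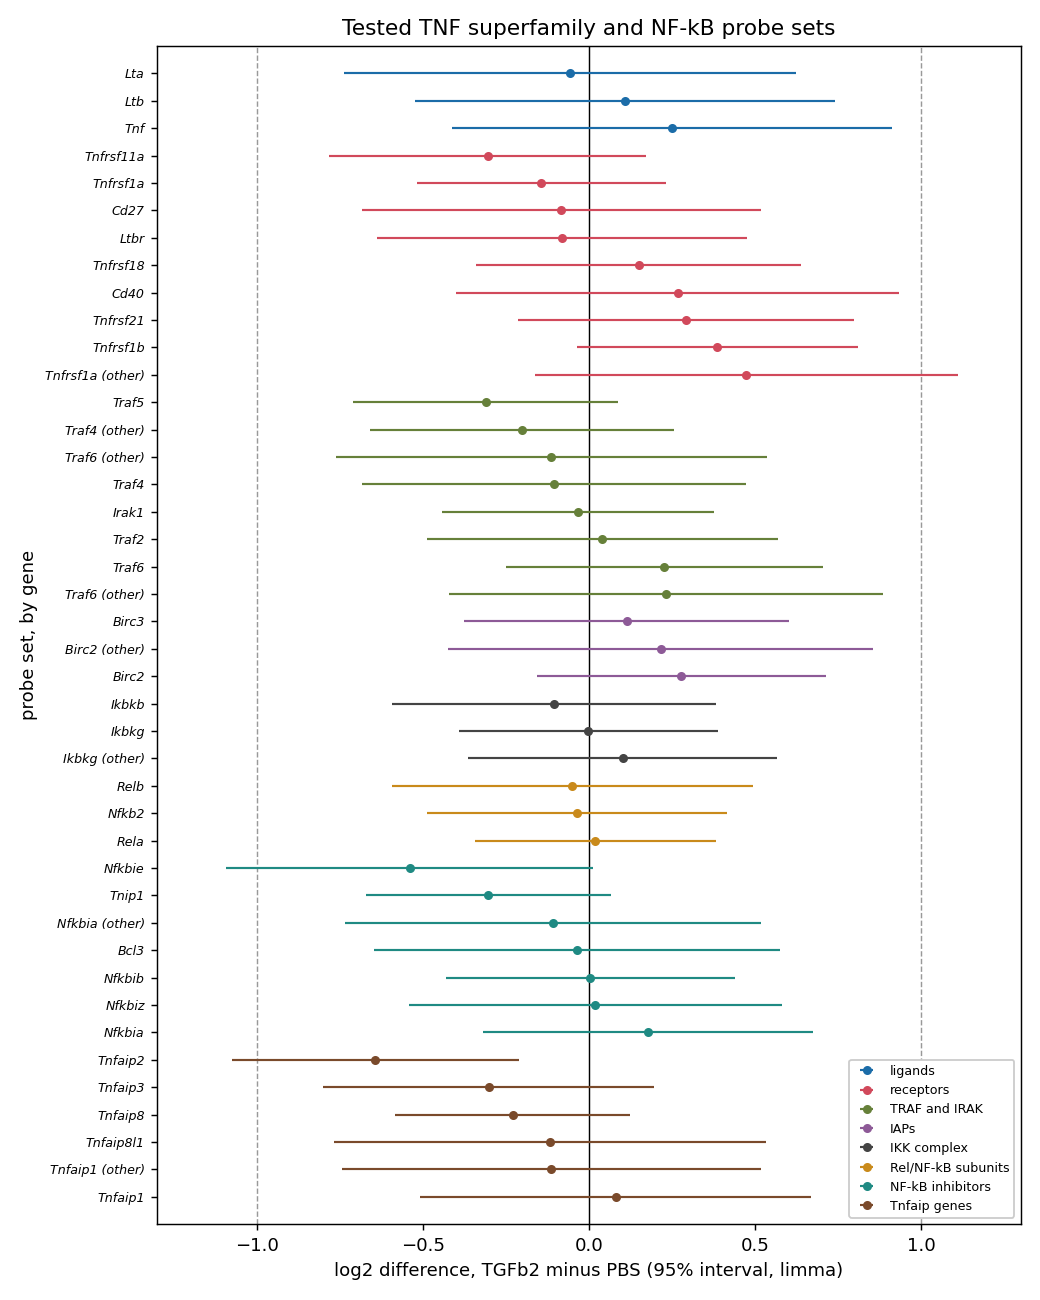
Log2 differences (TGFb2 minus PBS, x axis) with limma 95% intervals for the 42 tested member probe sets (y axis), coloured by role; "other" marks a dimmer probe set of the same gene, and dashed lines mark a 2-fold change. Points run from -0.64 for Tnfaip2 to 0.47 for the dimmer probe set of Tnfrsf1a, and 39 intervals lie between the dashed lines.

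Among the ligands, TNF itself did not differ beyond the spread between arrays. Of 9 ligand genes, 3 were bright enough to test, and these are direct neighbours in the mouse genome in the order Ltb, Tnf, Lta. Tnf was at 103 and 205.0 with PBS and at 179 and 174 with TGFb2. The PBS arrays lay on both sides of the TGFb2 arrays, so the spread within the control group was larger than the difference between groups (0.25 ± 0.29 on the log2 scale, SE, 95% interval -0.41 to 0.91, adjusted p = 0.79). The direction of that difference rested on 1 array: without PBS replicate 1 it was -0.20, and without PBS replicate 2 it was 0.70. Lta, which encodes lymphotoxin alpha, had signals of 102 and 114 with PBS and of 147 and 71.4 with TGFb2, where the TGFb2 arrays enclosed both controls (-0.06 ± 0.29, adjusted p = 0.97). Ltb, the membrane-bound partner of lymphotoxin alpha, was dim, at 39.1 and 30.1 with PBS and 46.1 and 31.4 with TGFb2, with overlapping groups (0.11 ± 0.27, adjusted p = 0.93).

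Receptors were the largest class, with 15 genes on the arrays, 8 of them tested. The p75 TNF receptor Tnfrsf1b, which signals through Traf2 and has no death domain, had signals of 846 and 965 with PBS and of 1015 and 1384 with TGFb2. Both TGFb2 arrays were the higher ones, but they differed from each other by more than the lower of them differed from the controls. Its log2 difference was 0.39 ± 0.18 (SE, 95% interval -0.04 to 0.81, adjusted p = 0.47), and it fell to 0.17 without TGFb2 replicate 2. Tnfrsf1a, the p55 TNF receptor that carries a death domain, had signals of 325 and 327 with PBS and of 308 and 279.8 with TGFb2. Here both TGFb2 arrays were the lower ones (-0.14 ± 0.16, adjusted p = 0.78). A dimmer probe set of the same gene, with an identifier ending in r_at (a class that uses fewer or less specific probes), differed by 0.47 ± 0.27 (adjusted p = 0.57), and this came from 1 array, with signals of 75.4 and 86.5 under PBS and of 160.3 and 86.0 under TGFb2.

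Tnfrsf11a, the receptor RANK for the osteoclast factor RANKL, was at 120.3 and 89.3 with PBS and 85.0 and 77.4 with TGFb2. The groups did not overlap, by a margin smaller than the spread between the PBS arrays (-0.31 ± 0.21, adjusted p = 0.63). The difference was -0.12 without PBS replicate 1 and -0.49 without PBS replicate 2. Tnfrsf21, the death receptor DR6, had signals of 166 and 247 with PBS and 235 and 269 with TGFb2 (0.29 ± 0.22, adjusted p = 0.67), with overlap, and its difference was 0.026 without PBS replicate 1 and 0.56 without PBS replicate 2. Cd40, the receptor through which T cells license macrophages, was near the filter level, with signals of 27.2 and 19.1 under PBS and 30.3 and 31.0 under TGFb2. Its groups did not overlap, and its difference was 0.27 ± 0.29 (adjusted p = 0.78). The PBS mean of Cd40, 23.15, lay below the filter level, so it was tested only through its TGFb2 arrays. The lymphotoxin beta receptor Ltbr was at 172.5 and 185 with PBS and 130.4 and 215 with TGFb2, so the TGFb2 arrays enclosed the controls (-0.08 ± 0.24). The other tested receptors were Tnfrsf18, the glucocorticoid-induced receptor GITR, at 0.15 ± 0.21, and Cd27, a lymphocyte costimulatory receptor, at -0.08 ± 0.26.

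**Figure D2:**
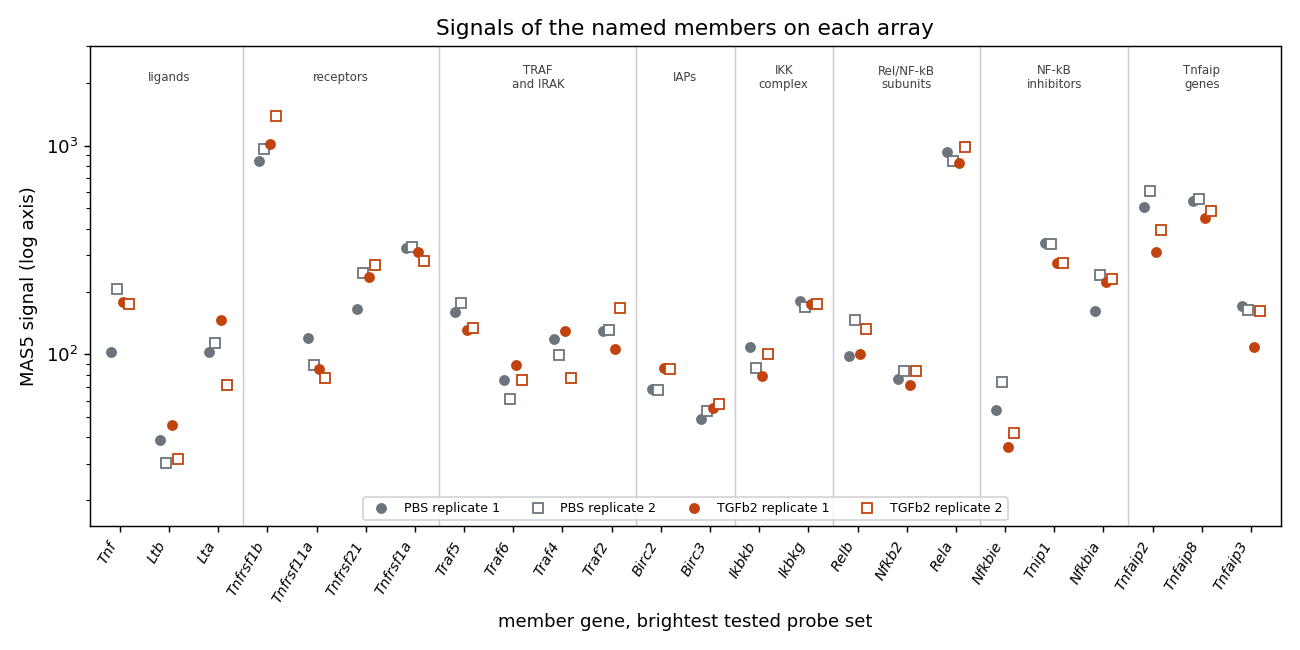
MAS5 signals (log y axis) of 24 named member genes (x axis, grouped by role) on each array; grey marks PBS and orange TGFb2, with filled circles for replicate 1 and open squares for replicate 2. Tnfaip2 and Nfkbie lie lower on both TGFb2 arrays, Tnfrsf1b lies higher on both, and for Tnf the PBS arrays lie on either side of the TGFb2 arrays.

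No adaptor or kinase downstream of the receptors passed the test. Of 6 genes, 5 were tested in 8 probe sets, and their differences ran from -0.31 to 0.23 with adjusted p of at least 0.55. Traf5, an adaptor of lymphotoxin and CD40 receptors, was at 160.2 and 176 with PBS and 131 and 133 with TGFb2. Both TGFb2 arrays were lower (-0.31 ± 0.17, 95% interval -0.71 to 0.09, adjusted p = 0.55). Traf2, the main adaptor of TNF receptors, had nearly equal controls at 129 and 130.5 and TGFb2 signals of 107 and 168 on either side of them (0.04 ± 0.23, adjusted p = 0.97). Traf6, which links Toll-like and interleukin-1 receptors to IKK, had 75.1 and 61.2 with PBS and 89.1 and 75.4 with TGFb2 in its brightest probe set (0.23 ± 0.20, adjusted p = 0.73). Traf4 was at 119 and 99.2 with PBS and 129 and 76.9 with TGFb2 (-0.11 ± 0.25, adjusted p = 0.92). The kinase Irak1 was at 342 and 334 with PBS and at 295 and 369 with TGFb2 (-0.03 ± 0.18, adjusted p = 0.97). Traf3ip2, which the rule did not include because its symbol runs on after the digit, would not have changed the count of members past the threshold.

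The ubiquitin ligases Birc2 and Birc3 (cIAP1 and cIAP2), which neighbour each other in the genome, did not pass the test. All 3 of their probe sets were higher on both TGFb2 arrays, as were 21.1% of all tested probe sets. Birc2 had closely matched arrays in each group, at 68.5 and 67.6 with PBS and 86.4 and 85.0 with TGFb2. Its difference of 0.28 ± 0.19 (95% interval -0.16 to 0.71, adjusted p = 0.63) carries an error set mostly by probe sets of like brightness, since limma shares the spread across the array. A dimmer probe set of Birc2 was at 23.3 and 26.2 with PBS and 28.7 and 33.7 with TGFb2 (0.22 ± 0.27). The PBS mean of this probe set, 24.75, lay below the filter level. It was tested only through its TGFb2 arrays, so its place among the 3 depended on them. Birc3 was at 48.9 and 53.5 with PBS and 55.2 and 58.0 with TGFb2 (0.11 ± 0.21, adjusted p = 0.90).

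No tested gene of the IKK complex or of the DNA-binding subunits passed, and their differences ran from -0.10 to 0.10 and from -0.05 to 0.02. The catalytic kinase Ikbkb was at 109 and 86.2 with PBS and 78.7 and 100.7 with TGFb2, with overlap (-0.10 ± 0.21, adjusted p = 0.90). The regulatory subunit Ikbkg (NEMO) was at 181 and 169 with PBS and 174 and 175 with TGFb2, a difference of -0.0016 ± 0.17 (95% interval -0.39 to 0.39). Rela, the p65 subunit of the classical dimer, had signals of 933 and 841 with PBS and 822 and 982 with TGFb2. Each group held 1 higher and 1 lower array, and the difference was 0.02 ± 0.16 (95% interval -0.34 to 0.38, adjusted p = 0.98). Nfkb2, the precursor of the alternative pathway, was at 76.2 and 82.9 with PBS and at 71.3 and 83.5 with TGFb2 (-0.04 ± 0.19). Its partner Relb was at 98.2 and 146 with PBS and 101 and 132 with TGFb2 (-0.05 ± 0.23). The adjusted p of these 3 subunits lay between 0.97 and 0.98. Nfkb1 was not analysed here.

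None of the 6 genes grouped here as inhibitors, a class that includes the atypical members Nfkbiz and Bcl3, passed the test. In their brightest probe sets 3 were above 0 and 3 below. Nfkbie, the IkB-epsilon protein that holds Rel dimers in the cytoplasm, was at 53.9 and 74.0 with PBS and at 36.1 and 41.8 with TGFb2. Both TGFb2 arrays were lower, and the log2 difference was -0.54 ± 0.24 (SE, 95% interval -1.09 to 0.01, adjusted p = 0.44). Over the processing alternatives it stayed negative, between -0.72 and -0.32. Tnip1, which binds the A20 protein and dampens TNF signalling, was at 342 and 339 with PBS and at 273 on both TGFb2 arrays. The arrays of a group differed by far less than the groups did, and the difference was -0.30 ± 0.16 (95% interval -0.67 to 0.07, adjusted p = 0.52). Nfkbia, the IkB-alpha protein that NF-kB itself induces within minutes to hours, had 2 probe sets with opposite signs. The brighter was at 162 and 240.2 with PBS and at 221 and 229.5 with TGFb2 (0.18 ± 0.21, adjusted p = 0.80), and the dimmer at 131 and 201 with PBS and at 119 and 187 with TGFb2 (-0.11 ± 0.27, adjusted p = 0.93). In both, PBS replicate 1 was well below PBS replicate 2, and without PBS replicate 1 the brighter probe set differed by -0.09. Nfkbib, at 222 and 285 with PBS and 239 and 267 with TGFb2, differed by 0.0047 ± 0.19. The atypical family members Nfkbiz and Bcl3, which act in the nucleus, differed by 0.02 ± 0.24 and -0.04 ± 0.26.

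The promoters of Tnfaip2, Nfkbie, Tnip1 and Nfkbia are shown as examples. Each holds a match to the kappaB consensus, the sequence that NF-kB dimers recognise. Tnfaip2, Nfkbie and Tnip1 were lower on both TGFb2 arrays, without passing the test, and Nfkbia was not. Tnfaip3, also lower on both TGFb2 arrays and with 2 matches in its window, is not shown. The promoters shown were chosen after the values were seen. Each is the 250 bases before the RefSeq start site on GRCm38.p6, the C57BL/6J reference and not the BALB/c strain studied, written 5′ to 3′ on the gene's strand, with matches to the consensus on either strand in capitals. Tnfaip2 (chr12:111442411-111442660, plus strand) has its match beginning 24 bases before the start site, Nfkbie (chr17:45555450-45555699, plus strand) 106 bases before, Nfkbia (chr12:55492648-55492897, minus strand) 29 bases before, and Tnip1 (chr11:54962941-54963190, minus strand) has 3 overlapping matches beginning 58 bases before.
Tnfaip2: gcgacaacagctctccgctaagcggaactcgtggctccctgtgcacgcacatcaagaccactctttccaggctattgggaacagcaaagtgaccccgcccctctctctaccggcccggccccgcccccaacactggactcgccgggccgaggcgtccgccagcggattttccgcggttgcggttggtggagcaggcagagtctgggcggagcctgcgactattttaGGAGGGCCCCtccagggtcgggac
Nfkbie: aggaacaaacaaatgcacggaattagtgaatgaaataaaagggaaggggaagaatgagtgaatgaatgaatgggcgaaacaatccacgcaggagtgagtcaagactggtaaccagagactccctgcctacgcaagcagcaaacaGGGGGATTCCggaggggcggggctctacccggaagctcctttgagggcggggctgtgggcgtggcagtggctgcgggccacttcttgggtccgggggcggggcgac
Tnip1: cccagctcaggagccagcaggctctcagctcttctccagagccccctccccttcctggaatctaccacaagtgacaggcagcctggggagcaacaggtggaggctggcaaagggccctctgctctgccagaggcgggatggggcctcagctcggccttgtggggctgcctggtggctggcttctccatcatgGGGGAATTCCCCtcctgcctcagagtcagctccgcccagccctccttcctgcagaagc
Nfkbia: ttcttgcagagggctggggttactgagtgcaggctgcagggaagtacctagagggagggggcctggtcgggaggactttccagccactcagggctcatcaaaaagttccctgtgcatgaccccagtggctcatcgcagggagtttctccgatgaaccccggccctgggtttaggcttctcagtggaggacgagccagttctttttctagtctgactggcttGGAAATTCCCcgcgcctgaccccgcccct

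Beyond these genes, windows from 250 bases before to 50 bases after the start site were found for 42 of the 50 member genes, and 13 of those genes held a kappaB match. Counted by window, 16 of 52 member windows held one (30.8%), against 8.46% of 32851 windows over all genes. Matches were found among ligands (Ltb), receptors (Tnfrsf8, Tnfrsf9), signalling kinases (Irak1), subunits (Rel, Nfkb2), the class grouped as inhibitors (Nfkbia, Nfkbie, Tnip1, Bcl3) and Tnfaip genes (Tnfaip2, Tnfaip3, Tnfaip8l1). The 10 tested genes with a match differed by -0.64 to 0.18 between groups, with a median of -0.08 and 8 below 0. Among them, Bcl3, Nfkb2 and Irak1 were close to 0 (-0.04, -0.04 and -0.03). The 19 tested genes whose windows held no match differed by -0.31 to 0.39, with a median of 0.02 and 8 below 0. Over all tested probe sets, 49.8% lay above 0. Whether genes with and without a match differ was not tested. These letters are a description of the windows, and neither binding nor its effect was measured.

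The Tnfaip genes, grouped here by the start of their symbol, held the largest difference among members above the level filter. Tnfaip2, a cytoplasmic protein that shapes membrane protrusions, was at 508 and 603 with PBS and at 308 and 394 with TGFb2. Both TGFb2 arrays were below both controls, and the gap between groups exceeded the spread within either. Its log2 difference was -0.64 ± 0.19 (SE, 95% interval -1.08 to -0.21, unadjusted p = 0.00915), which did not pass after adjustment over all probe sets (adjusted p = 0.21). With 1 array left out it ran from -0.81 to -0.47, with adjusted p from 0.15 to 0.71. Tnfaip3, which encodes A20, a ubiquitin-editing brake on NF-kB, was at 170 and 163 with PBS and at 108 and 160.5 with TGFb2. The TGFb2 arrays were both lower, but replicate 2 was close to the nearest control, and without TGFb2 replicate 1 the difference of -0.30 ± 0.21 (adjusted p = 0.65) became -0.05. Tnfaip8, an inhibitor of caspase-driven death, was at 541 and 557 with PBS and at 448 and 485 with TGFb2 (-0.23 ± 0.15, adjusted p = 0.62), without overlap. Tnfaip1 and Tnfaip8l1 differed by 0.08 ± 0.25 and -0.12 ± 0.28, with adjusted p of 0.94 and 0.92.

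Among the tested genes, 7 carried more than 1 tested probe set, and these did not always share a sign. The signs were opposite for 5 of them (Ikbkg, Nfkbia, Tnfaip1, Tnfrsf1a and Traf6) and equal for Birc2 and Traf4. For Traf6 the 3 probe sets differed by 0.23, 0.23 and -0.11, and for Tnfaip1 the 2 differed by 0.08 and -0.11. No probe set of these genes passed the test.

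The remaining 23 member probe sets were below the level filter, with signals between 0.4 and 30.8, and 16 genes had no tested probe set. These were the ligands Fasl, Tnfsf4, Tnfsf8, Tnfsf9, Tnfsf10 and Tnfsf11, the receptors Fas, Tnfrsf4, Tnfrsf8, Tnfrsf9, Tnfrsf11b, Tnfrsf17 and Tnfrsf19, the adaptor Traf1, the subunit Rel and the hyaluronan-binding protein Tnfaip6. No detection calls were at hand, so it is not known which of them were present. Fas, the death receptor, was at 8.6 and 9.4 with PBS and 9.7 and 6.1 with TGFb2, and its ligand Fasl at 3.7 and 1.9 with PBS and 7.2 and 1.2 with TGFb2. Tnfsf11 (RANKL) was at 10.7 and 6.4 with PBS and 7.1 and 5.3 with TGFb2, and Tnfsf10 (TRAIL) at 9.4 and 8.3 with PBS and 16.8 and 2.8 with TGFb2. The widest gap among these dim probe sets was that of Tnfsf9, the ligand of the costimulatory receptor 4-1BB, at 8.3 and 7.4 with PBS and 27.3 and 29.6 with TGFb2. Both TGFb2 arrays crossed the filter level of 25.1, which the mean of the 4 arrays did not reach. When the filter was dropped, Tnfsf9 differed by 0.93 ± 0.22 (SE, unadjusted p = 0.00577, adjusted p = 0.27). Its receptor Tnfrsf9 did not separate the groups, at 8.7 and 24.4 with PBS and 30.8 and 12.1 with TGFb2 in the brighter of its 2 probe sets. Tnfrsf11b, the decoy receptor osteoprotegerin, was at 15.9 and 16.1 with PBS and 25.3 and 29.4 with TGFb2, and differed by 0.45 ± 0.24 without the filter (adjusted p = 0.67). Rel, the c-Rel subunit of activated leukocytes, was at 4.8 and 0.7 with PBS and 7.4 and 9.5 with TGFb2, levels at which the signal is close to the lowest values of the arrays.

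**Figure D3:**
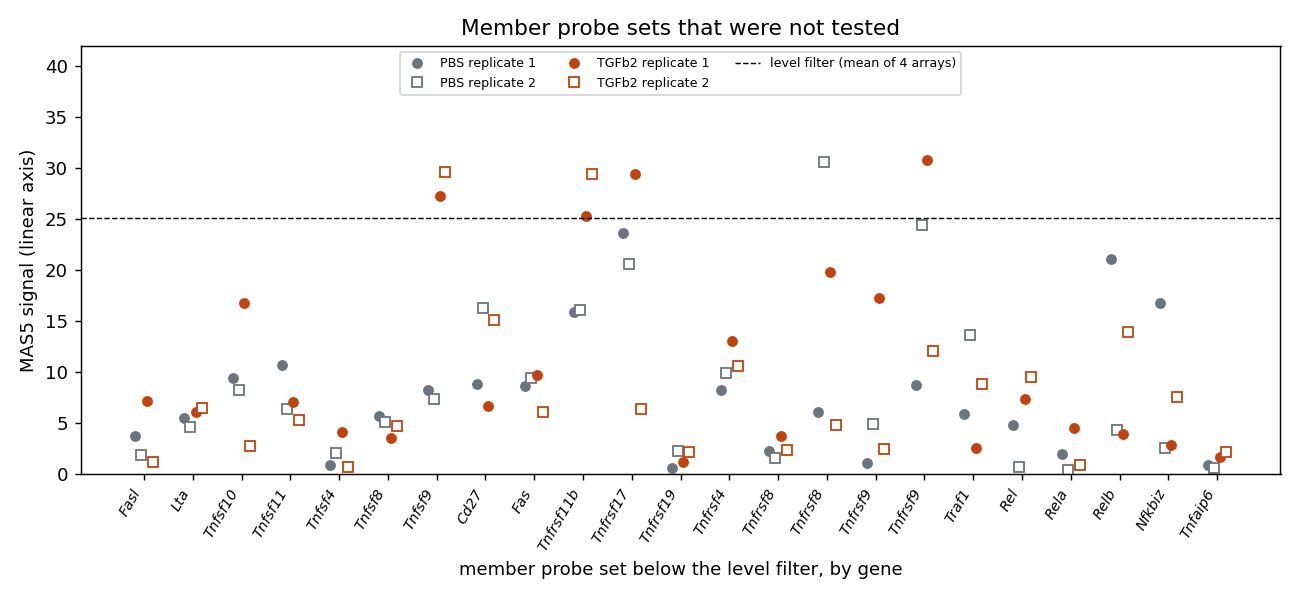
MAS5 signals (linear y axis) of the 23 member probe sets below the level filter (x axis, by gene) on each array, with colours and shapes as for the named members; the dashed line is the filter level of 25.1, applied to the mean of the 4 arrays. Tnfsf9 and Tnfrsf11b are the probe sets in which both TGFb2 arrays lie above that level and both PBS arrays below it.

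Genes around the members in the same pathway were read from 4 lists, chosen with earlier results of these data known. Of 8 tested death domain adaptors and caspases of TNF receptors, 0 rose and 0 fell, with a median difference of -0.06. Of 9 tested genes of the Toll-like and interleukin-1 receptor arm, 0 rose and 0 fell, with a median of -0.08. Of 13 other regulators of NF-kB, 0 rose and 0 fell, with a median of -0.17, 10 below 0 and 3 above. Among these 13, both TGFb2 arrays lay below both PBS arrays in 6 and above them in 1. The shares of all tested probe sets were 21.8% and 21.1%. At an unadjusted limma p under 0.05 the numbers in these 3 lists were 0, 0 and 1. That 1 was Ikbke (-0.74 ± 0.23, adjusted p = 0.24). Inflammatory genes known as NF-kB targets stood further from 0: 1 of 23 tested genes rose and 2 fell, with a median of -0.29, 14 below 0 and 9 above, and 6 more genes were below the filter. At an unadjusted limma p under 0.05 there were 8 of them, beside the 11.7% of all tested probe sets. Both TGFb2 arrays lay below both PBS arrays in 10 of the 23 and above them in 3, against 21.8% and 21.1% of all tested probe sets. Among the 10, Il1b and Cd80 had TGFb2 means of 13.05 and 23.5, below the filter level. These genes were tested only through their PBS arrays, so their place in the count depended on them. The largest difference in this list, that of Cxcl1, did not pass (-1.52 ± 0.33, adjusted p = 0.094). The gene that rose was Plau, the urokinase plasminogen activator, from 320.4 and 351 with PBS to 777 and 908 with TGFb2 (1.29 ± 0.16, adjusted p = 0.0215). Those that fell were the interleukin-1 receptor antagonist Il1rn, from 1969 and 2343 to 711 and 962 (-1.36 ± 0.18, adjusted p = 0.0244), and the neutrophil chemokine Cxcl2, from 91.7 and 88.3 to 28.7 and 22.8 (-1.37 ± 0.22, adjusted p = 0.0403).

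With 1 array left out, the sizes of these 3 differences moved little, from 1.18 to 1.40 for Plau, from -1.58 to -1.15 for Il1rn and from -1.47 to -1.26 for Cxcl2, while calls were lost in these smaller fits, in which 11 to 50 probe sets passed over all. The call of Plau was lost without either TGFb2 array (adjusted p = 0.087 and 0.085), that of Il1rn without PBS replicate 2 (0.063) or TGFb2 replicate 1 (0.097), and that of Cxcl2 without any 1 of the 4 arrays (0.089 to 0.22). In all, 3 of 53 tested genes around the members passed, and 0 of the 34 tested member genes, beside 1.17% of all tested probe sets. Whether the target genes and the members differ in their response was not tested.

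**Figure D4:**
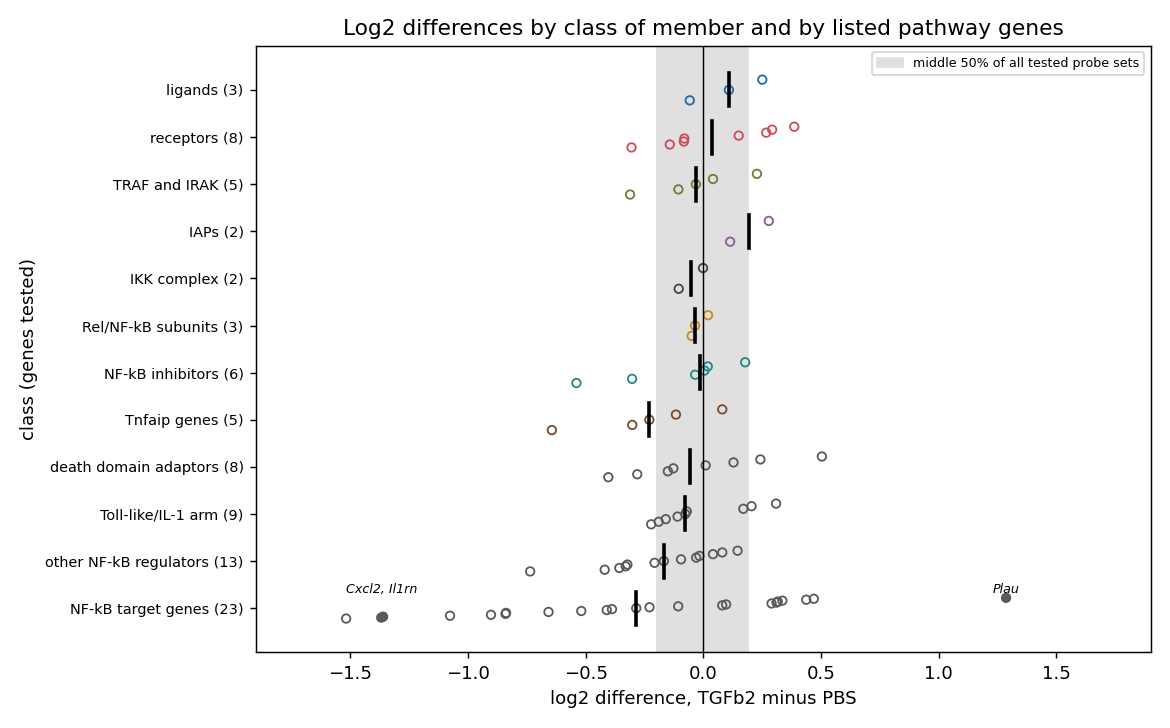
Log2 differences (TGFb2 minus PBS, x axis) of the brightest tested probe set per gene, by class of member and for the 4 lists of surrounding genes (y axis, number of genes tested in brackets); filled points passed an adjusted p of 0.05, black bars are medians, and the grey band holds the middle 50% of all tested probe sets. Every member point is open, and the filled points are Cxcl2, Il1rn and Plau among the target genes.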

How the data were processed

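Affymetrix arrays, 2 per group, were hybridised with RNA from adherent peritoneal cells. The submitters' processing notes name MAS5, without a version, as the source of the deposited intensities. Detection calls, scanner files and scan dates were not used here. Of 12488 probe sets, 66 are controls; 10833 of the rest carry 1 gene symbol in the platform annotation, and 10817 of these matched a gene ID of the GRCm38.p6 table. Signals were taken to log2(signal + 15), and those whose 4-array mean reached the 40th percentile (25.1) entered a linear model of TGFb2 against PBS with no other term (limma 3.58.1 under R 4.3.3, eBayes with trend = TRUE), two-sided, Benjamini-Hochberg adjusted over all 7453, at a threshold of 0.05. The script was tested on simulated data. A gene was represented by its brightest tested probe set. Full values were given for the 3 members of each role with the smallest p and for a core set. The members and lists were chosen with earlier results of these data known. The small number of arrays limits the precision. Alternatives covered the pseudocount, the filter, quantile normalization, the variance prior, the replicate block, the choice of probe set and each array left out.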

Additional observations from a re-analysis of the deposited data

How the results depend on the processing

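How many probe sets passed depended on the processing, and for the members this held in 1 fit. Over all probe sets, 87 passed as reported, 56 without a pseudocount, 6 without the filter on low values, 13 without an intensity trend in the variance, and 11 to 50 when 1 array was left out. Among the 53 surrounding genes, 3 passed as reported, 0 without the filter, 0 without the intensity trend, and 0 to 2 with 1 array left out. Arrays with the same replicate number share only that number in the labels, and their deviations correlated at 0.14. With the replicate number as a block, 324 probe sets, 7 surrounding genes and 1 member passed, Tnfaip2 (adjusted p = 0.041). In the other alternatives 0 members passed, also with Traf3ip2 counted as one (an alternative chosen after seeing the data), with 1 to 3 member probe sets at an unadjusted limma p under 0.05. The members' median ran from -0.092 to 0.078 with 1 array left out, the highest value without TGFb2 replicate 1. Of 24 named members, 12 kept their sign in all alternatives that could be fitted. Quantile normalization turned Ikbkg to 0.0058 and Rela to -0.0024, and averaging a gene's probe sets turned Ikbkg to 0.050 and Tnfrsf1a to 0.17. With 1 array left out, the log2 difference ran from -0.26 to 0.047 for Ikbkb, -0.046 to 0.043 for Ikbkg, -0.30 to 0.20 for Relb, -0.13 to 0.060 for Nfkb2, -0.11 to 0.15 for Rela, -0.43 to 0.22 for Traf4, -0.25 to 0.33 for Traf2, -0.088 to 0.44 for Nfkbia, -0.20 to 0.70 for Tnf, -0.090 to 0.31 for Ltb and -0.51 to 0.39 for Lta. The cause of these shifts was not tested.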

Other observations

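Many members were higher on the array numbered 2 than on the array numbered 1 of both groups, a pattern singled out after the values were seen. Of the 42 tested member probe sets, 26 (61.9%) were higher on PBS replicate 2 than on PBS replicate 1, against 48.4% of all tested probe sets. On TGFb2 replicate 2, 30 (71.4%) were higher than on TGFb2 replicate 1, against 46.3% of all. In both groups 20 (47.6%) were higher on replicate 2. Over all tested probe sets the share higher in both was 24.7%. Among the 10 tested probe sets of the subunits and of the class grouped as inhibitors, 7 were higher in both. They were both of Nfkbia and those of Nfkbie, Relb, Bcl3, Nfkb2 and Nfkbib. The median log2 difference of these 10 between the arrays was 0.36 within PBS and 0.17 within TGFb2, against -0.0089 and -0.03 over all tested probe sets. In the surrounding lists, 8 of 23 NF-kB target genes were higher in both (34.8%), 0 of 8 death domain adaptors and caspases, 2 of 9 genes of the Toll-like and interleukin-1 arm (22.2%) and 3 of 13 other regulators (23.1%). The numbers of the replicates tie no arrays together in the labels, and what set these arrays apart was not tested.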
